A study of Mus musculus with 12 samples.

Results

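Transcripts of 9 apolipoproteins and of the microsomal triglyceride transfer protein were followed in mouse liver after inhibition of the miR-29 family. The genes were Apoa1, Apoa2, Apoa4, Apoa5, Apob, Apoc1, Apoc2, Apoc3, Apoe and Mttp. They were taken by symbol from the deposited expression table, so that 10 of its 21705 rows were described. The liver RNA came from C57BL/6J female mice aged 10 to 12 weeks. 6 mice received 20 mg/kg LNA29a together with 20 mg/kg LNA29bc through the tail vein, and 6 mice received saline by the same route. LNA29a and LNA29bc are locked nucleic acid oligonucleotides complementary to miR-29a and to miR-29b and miR-29c, and the treated group is called LNA29. The livers were collected 7 days after dosing, after an 18 h fast, in both groups. Each liver is 1 mouse, and the saline livers are named by the mouse numbers 43, 45, 47, 49, 51 and 53 and the LNA29 livers by 44, 46, 48, 50, 52 and 54. An oligonucleotide directed at another microRNA was not among the libraries analysed here, so injection of an oligonucleotide and loss of miR-29 cannot be told apart.

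The liver packages triglyceride and cholesteryl ester into very low density lipoprotein (VLDL). Apob is the scaffold of the particle, and Mttp transfers lipid onto Apob while it is being made in the endoplasmic reticulum. Apoa1 and Apoa2 are the main proteins of high density lipoprotein (HDL), whereas Apoe and the Apoc proteins move between particles and govern their uptake and lipolysis. Apoa4 and Apoa5 act on triglyceride secretion and on plasma triglyceride clearance.

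MicroRNAs recognise mRNAs mainly through bases 2 to 8, the seed, and the members of the miR-29 family share it. The mature sequences are shown because the LNA29 oligonucleotides were directed at them, with the seed in capitals. They are from RefSeq on GRCm38.p6, where miR-29a-3p lies at chr6:31062673-31062694 on the minus strand, miR-29b-3p at chr1:195037091-195037113 on the plus strand, and miR-29c-3p at chr1:195037600-195037621 on the plus strand.
mmu-miR-29a-3p: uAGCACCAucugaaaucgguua
mmu-miR-29b-3p: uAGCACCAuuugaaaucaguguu
mmu-miR-29c-3p: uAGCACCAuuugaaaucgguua

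The complement of this seed, TGGTGCT, was searched in the longest annotated 3′ untranslated region (UTR) of each gene in GENCODE. Of the 10 genes, Apoa5 alone held it, with 2 matches in a 3′ UTR of 1185 bases, whereas 2755 of 21022 annotated genes (13.1%) held at least 1. The searched regions of the other 9 genes were 64 bases (Apoa1) to 1201 bases (Mttp) long. The matches of Apoa5 lay at bases 316 to 322 and 941 to 947 of its 3′ UTR, and the surrounding letters were the same. The matches are shown with the 7 matching bases in capitals. A match of letters is not evidence of binding.
Apoa5, bases 316 to 322: tctcgcagccTGGTGCTggctgttaca
Apoa5, bases 941 to 947: tctcgcagccTGGTGCTggctgttaca

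In the GRCm38 annotation the genes lay on 5 chromosomes, in part side by side. Apoa1 (chr9:46228580-46230466, plus strand), Apoc3 (chr9:46232933-46235636, minus strand), Apoa4 (chr9:46240696-46243459, plus strand) and Apoa5 (chr9:46268633-46271919, plus strand) formed a cluster on chromosome 9. Apoe (chr7:19696109-19699188), Apoc1 (chr7:19689481-19692660) and Apoc2 (chr7:19671579-19677941) formed another on the minus strand of chromosome 7. Apob (chr12:7977648-8016835, plus strand, 29 exons), Apoa2 (chr1:171225054-171226379, plus strand) and Mttp (chr3:138089854-138144968, minus strand) stood alone. The deposited values were made on mm9, and no coordinate was read from them. Apoc2 overlapped the annotated gene Gm44805 on its own strand, and Apoa4, Apoa5 and Mttp overlapped genes on the opposite strand. The counts are not stated to use strand, so reads from such partners cannot be told apart. Apoa4 and Apoc2 had no liver with a whole number of reads, whereas the other 8 genes had whole reads in all 12 livers.

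The libraries held 7696081 to 19062437 reads on genes. The LNA29 group was checked on 4 collagen and matrix genes known as miR-29 targets. Sparc (log2 difference 1.51, adjusted p = 4.62e-05), Eln (1.93, adjusted p = 0.0224) and Col3a1 (1.48, adjusted p = 0.0438) were higher in LNA29 livers by limma, and Col1a1 (0.70, adjusted p = 0.688) did not pass. Hepatocyte markers had reads in all 12 livers, as the tissue label gives. The check also held 8 markers of intestinal epithelium, another tissue that makes apolipoproteins. Of these, Sis, Lct, Alpi, Mep1a and Cdh17 were at 0 reads in every liver and 7 had at most 3 reads in any liver. The remaining marker, Fabp2, went the other way, with reads in all 12 livers and a mean value of 1616. Saline liver 49 stood apart. Albumin took 35.7% of its reads (95% Wilson interval 35.63 to 35.69, counting error only) and 43.6% to 46.9% in the other 11 livers, and the summed level of 9 other hepatocyte markers was 3137543 there, against 5231234 to 7721467 in the other saline livers and 4326098 to 6117685 in LNA29 livers. With albumin, which made up most of it, the sum of the 10 markers was 32441523, against 73846702 to 106416449 and 74929830 to 92243956. The summed level of 12 Kupffer cell and macrophage markers was 14734 to 23474 in saline and 13429 to 25986 in LNA29 livers. Stellate cell markers summed to 14990 to 23298 and 15696 to 19699, and bile duct markers to 603 to 906 and 439 to 1170. Ecm1 made up most of the stellate sum, with a mean value of 15065 where the next marker, Colec11, had 1385. The part of these markers in the results below was not tested, and the difference of each member is given with and without saline liver 49. In whole liver, fewer cells of a type and less RNA per cell cannot be told apart.

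Together the members took 8.15% to 17.1% of all reads on genes in a liver. The median was 11.5% in saline and 10.4% in LNA29 livers. Most of these reads fell on Apoe, Apoa1 and Apoa2, with means of 6.14%, 2.86% and 1.73% in saline livers. At the other end, Apoc2 took 0.00829% and Mttp 0.00344% in saline livers. Levels of different genes were compared as deposited values per kilobase of the longest annotated transcript. In saline livers the order was Apoe (mean 7448177 ± 2849457 SD, n = 6), Apoa2 (5865650 ± 2942066), Apoa1 (4813329 ± 2013887), Apoc1 (1360168 ± 718623), Apoc3 (286643 ± 109638), Apoa5 (52178 ± 16593), Apoa4 (40281 ± 21036), Apoc2 (18915 ± 7031), Apob (10314 ± 1929) and Mttp (1295 ± 189). Neighbours in this order had overlapping ranges over the 6 saline livers, except at 2 steps. Such ranges include shifts that the genes of a liver share, and the order per kilobase within each liver was not compared. Apoa5 lay below Apoc3, with a highest value of 68634 per kilobase against a lowest of 116389. Mttp lay below Apob in every saline liver, with a highest value of 1554 per kilobase against a lowest of 6923. In LNA29 livers Apoa1 (6712904 ± 1211997) had the highest mean per kilobase, ahead of Apoe (6070355 ± 2264900) and Apoa2 (4621506 ± 1564702), with overlapping values.

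**Figure D1:**
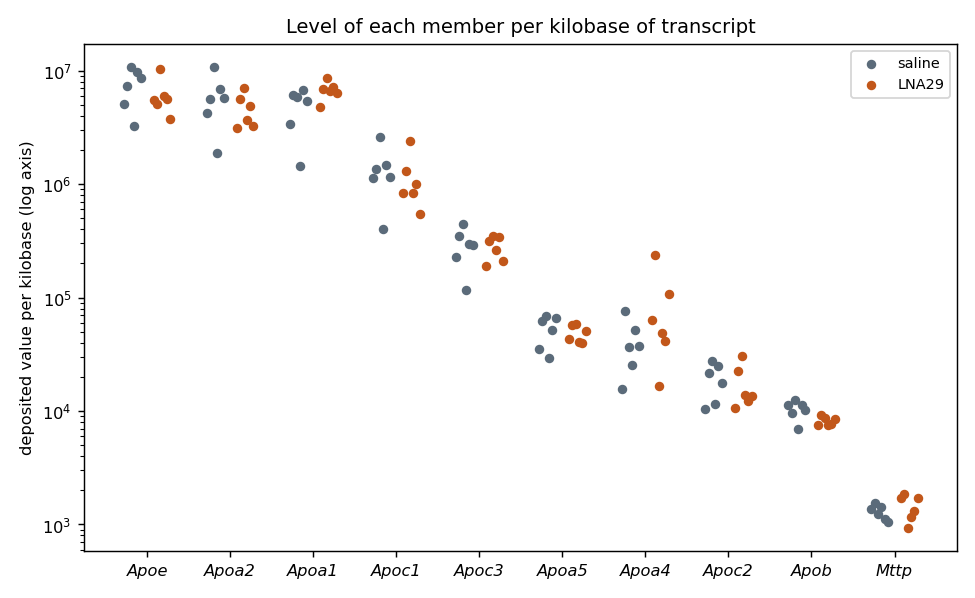
Deposited value per kilobase of transcript (log axis) for each gene, ordered by the saline mean, with 1 point per liver (6 saline, 6 LNA29). Levels run from means of 7448177 for Apoe to 1295 for Mttp in saline livers, and the groups overlap for each gene.

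The question put to each gene was whether its RNA differed between LNA29 and saline livers. None of the 10 genes passed the test by limma on log2(value + 1) with Benjamini-Hochberg adjustment over 12486 tested genes. All 10 passed the filter on low values. The smallest adjusted p among them was 0.748, and 0 had an unadjusted p under 0.05. By limma, 0.160% of all tested genes were called at the adjusted threshold, and 7.91% had an unadjusted p under 0.05. The count of members called was also 0 by edgeR and by DESeq2, each of which gave 1 member, Apoa4, an unadjusted p under 0.05. Of the 10 genes, 4 had a higher and 6 a lower mean log2 value in LNA29 livers, with a median log2 difference of -0.10 against -0.093 over all tested genes. In 0 of 10 did the 6 LNA29 livers lie entirely apart from the 6 saline livers, where 0.985% of all tested genes did. By the exact permutation test, 1 member (Apob) had an unadjusted p under 0.05, a share of 1 in 10 where 8.50% of tested genes passed. The members varied between livers of a group. The median within-group SD of log2 values was 0.58 over the members and 0.34 over 741 other genes at or above the level of Mttp.

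**Figure D2:**
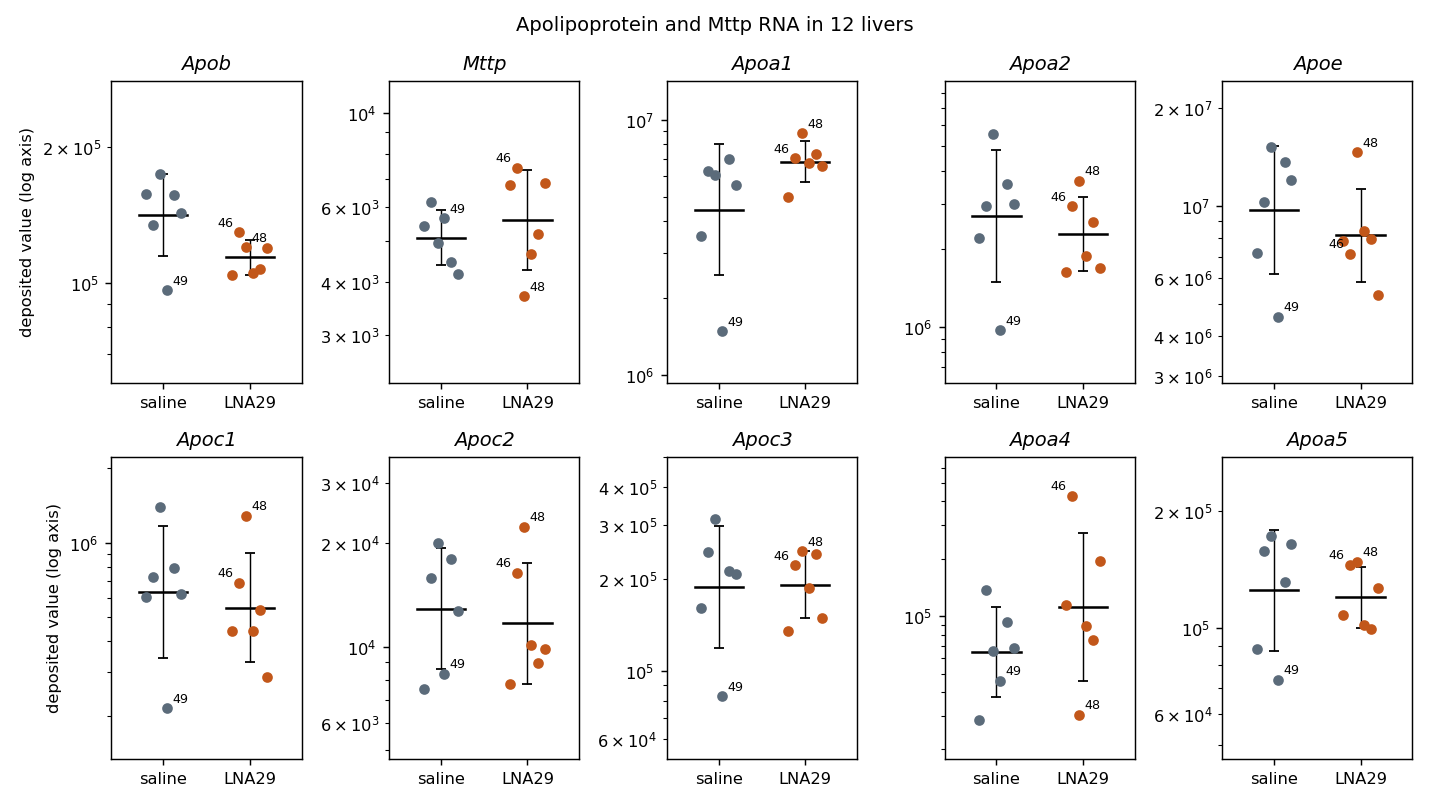
Deposited value (log axis) of each gene in 6 saline and 6 LNA29 livers, with 1 point per liver; bars give the mean and SD of log2 values. Saline liver 49 and LNA29 livers 46 and 48 are numbered: 49 is the lowest saline liver for 7 of 10 genes, and 48 the highest LNA29 liver for 7 of 10.

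Apob, the structural protein of VLDL, had the lowest limma p and exact permutation p of the members, while edgeR and DESeq2 gave an unadjusted p under 0.05 to Apoa4 and not to Apob. Its values ran from 96470 through a median of 149904 to 174263 in saline livers, and from 104338 through 113583 to 129488 in LNA29 livers. All 6 LNA29 livers lay below the saline median. On the deposited scale saline liver 49 had the lowest value of all and was the liver that made the groups overlap. By share of reads on genes this liver was not the lowest. Apob took 9647 of 8217212 reads there and 9933 of 12337052 in saline liver 47. The mean was 143719 ± 26878 (SD, n = 6) in saline and 114418 ± 10224 in LNA29 livers. The log2 difference was -0.31 ± 0.19 (SE) with a limma adjusted p of 0.748, and the two-sided exact permutation p was 0.0476, unadjusted. Without saline liver 49 the other saline livers ran from 134365 to 174263, above the highest LNA29 value. The log2 difference was then -0.42 and the exact permutation p was 0.00216, the smallest that 5 against 6 livers allow, while the limma adjusted p was 0.459 (range over the alternatives 0.390 to 0.905). Apob was the single member whose groups did not overlap without that liver, where 1.54% of tested genes did not. The exact test also depended on the scaling. With livers left out in turn, it stayed under 0.05 in 2 of 12 cases, without saline 49 and without LNA29 46 (exact permutation p 0.00216 to 0.0931). The exact permutation p was 0.00216 with a log2 difference of -0.43 when livers were scaled to total reads, and 0.193 with -0.26 when they were shifted to a common median.

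Mttp, the lipid transfer partner of Apob, was the least abundant of the genes, with 196 to 564 reads per liver. Saline livers ran from 4176 through a median of 5185 to 6159, and LNA29 livers from 3698 through 5982 to 7415. The LNA29 livers held both the lowest value (liver 48) and the 3 highest (livers 46, 54 and 44), so that the treated group enclosed the saline range. The log2 difference was 0.14 ± 0.17 (SE; 95% interval -0.23 to 0.50), with a limma adjusted p of 0.908. It was 0.17 without saline liver 49.

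Apoa1, the defining protein of HDL, had a higher mean in LNA29 livers (6947855 ± 1254417, SD, n = 6) than in saline livers (4981795 ± 2084373). Saline livers ran from 1483850 through 5808842 to 6991253, and LNA29 livers from 4983400 through 6940080 to 8862585. 5 of 6 LNA29 livers lay above the saline median, and 3 lay above every saline liver. This gave a log2 difference of 0.62 with a limma adjusted p of 0.904 and an exact permutation p of 0.0823. It was 0.31 without saline liver 49 (exact permutation p = 0.156). The exact permutation p of Apoa1 fell under 0.05 in 4 alternatives, at 0.0411 with total reads, 0.0325 with total reads other than Alb, 0.0303 without saline liver 51 and 0.0433 without LNA29 liver 44. For the most abundant genes the limma fit with a variance trend gave standard errors larger than those computed from the 2 groups of the gene alone. For Apoa1 they were 0.77 and 0.36. A fit without the trend, added after the values were seen, gave a standard error of 0.35, a 95% interval of -0.14 to 1.39 and an adjusted p of 0.751.

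Apoa2, the second protein of HDL, had values in the opposite order. Saline livers ran from 973300 through 2966380 to 5562474, and LNA29 livers from 1633125 through 2215716 to 3678887, and 5 of 6 LNA29 livers lay below the saline median. The limma 95% interval on the log2 scale was -1.45 to 0.98, and -1.05 to 0.59 without the trend. The log2 difference was -0.23, with a limma adjusted p of 0.960 and an exact permutation p of 0.571. Single saline livers moved the value, to -0.52 without saline liver 49 (exact permutation p = 0.104) and to -0.021 without saline liver 47 (exact permutation p = 0.968).

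**Figure D3:**
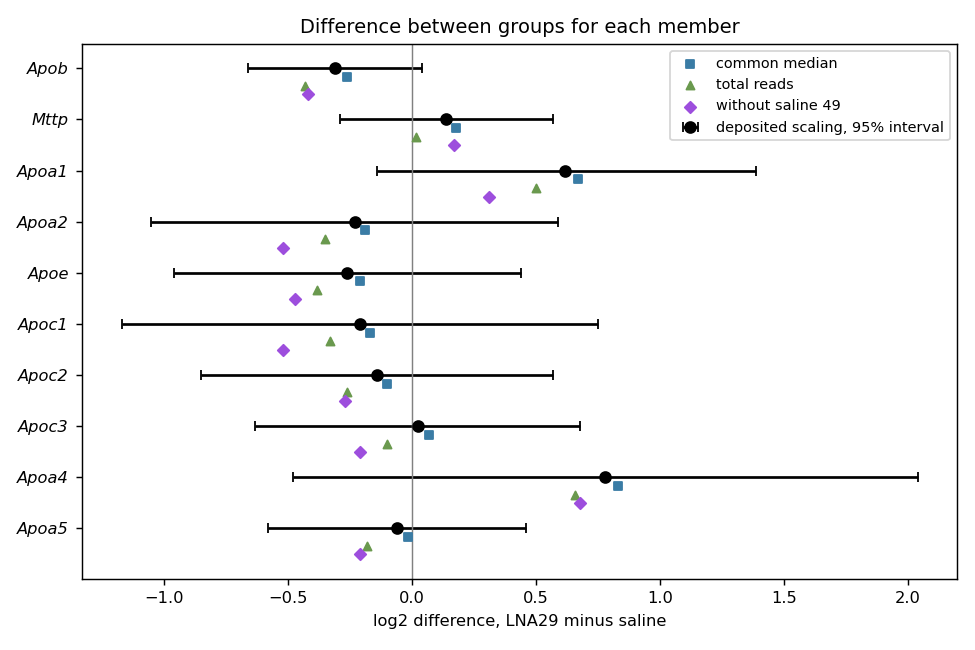
Log2 difference between LNA29 and saline livers for each gene (6 against 6). Black points give the deposited scaling with the 95% interval of the limma fit without a variance trend, and coloured points the value under a common median, under total reads and without saline liver 49. Each interval holds 0, and leaving out liver 49 lowers the value of 9 genes, from 0.62 to 0.31 for Apoa1.

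Ratios between members within a liver do not depend on how a liver was scaled. All 45 ratios were computed after the values were seen, and their p-values are unadjusted. 7 of them had an exact permutation p under 0.05, and each of the 7 set Apoa1 against another member. They share the values of Apoa1 and are not separate observations. Set against each of the 12485 other tested genes, the ratio of Apoa1 had an exact permutation p under 0.05 in 23.5%, beside 7 of 9 for the members. The ratio of Apoa1 to Apoa2 ran from 1.09 through a median of 1.72 to 2.15 in saline livers and from 2.41 through 2.97 to 3.89 in LNA29 livers. The groups did not overlap. The difference of this ratio was 0.86 ± 0.18 on the log2 scale (SE, n = 6 and 6), or 1.81-fold, with p = 0.00216, the smallest that 6 against 6 livers allow in the exact permutation test. The ratio of Apoa1 to Apob did not overlap either, from 15.4 to 46.9 in saline and from 47.8 to 73.7 in LNA29 livers (log2 difference 0.93 ± 0.28, exact permutation p = 0.00216). Over the other tested genes the ratio of Apoa1 did not overlap between the groups in 1.71%.

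The ratio of Apoa1 to Apoe was 0.324 to 0.611 in saline and 0.604 to 1.24 in LNA29 livers, which overlapped by a small margin (log2 difference 0.88 ± 0.21, exact permutation p = 0.00433). Apoe thus had the higher deposited value in every saline liver, and also in every LNA29 liver except liver 54, where the ratio was 1.24. Relative to Apoc3, Apoa5, Apoc1 and Apoc2, Apoa1 was 1.52-fold, 1.61-fold, 1.79-fold and 1.70-fold higher in LNA29 livers, with exact permutation p of 0.00649, 0.00866, 0.0195 and 0.0216. On the log2 scale the ratio to Mttp differed by 0.49 ± 0.46 and that to Apoa4 by -0.16 ± 0.65, and neither passed (exact permutation p = 0.346 and 0.833). Leaving out each liver in turn, the log2 difference stayed between 0.74 and 0.93 for the ratio to Apoa2, between 0.73 and 1.05 for that to Apob and between 0.77 and 0.98 for that to Apoe. The largest exact permutation p in these sets were 0.00433, 0.00866 and 0.0108.

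**Figure D4:**
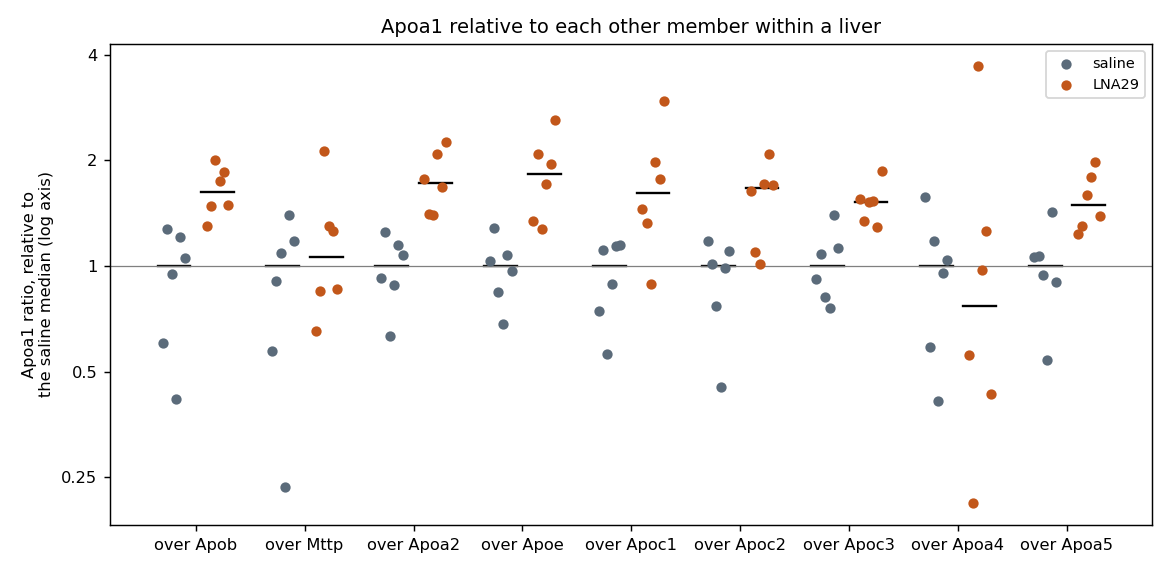
Ratio of the deposited value of Apoa1 to that of each other gene within a liver, divided by the saline median of that ratio (log axis), with 1 point per liver and bars at group medians. The 6 LNA29 livers lie above the 6 saline livers for the ratios to Apoa2 and Apob, and the groups overlap for the other 7.

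Apoe, the ligand that brings remnant particles to liver receptors, took the largest share of reads of the 10 genes, 6.14% ± 1.14 (SD, n = 6) in saline and 4.93% ± 1.95 in LNA29 livers. Its values ran from 4573170 through 11179585 to 15156561 in saline and from 5320123 through 7883624 to 14674491 in LNA29 livers. 5 of 6 LNA29 livers lay below the saline median, and LNA29 liver 48 lay near the top of the saline range. The limma 95% interval of its log2 difference was -2.25 to 1.73, and -0.96 to 0.44 without the trend. The log2 difference was -0.26, with a limma adjusted p of 0.976 and an exact permutation p of 0.444. Without saline liver 49 it was -0.47 with an exact permutation p of 0.117, and without saline liver 47 it was -0.13.

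The Apoc genes showed no difference larger than their spread. Apoc1, an inhibitor of particle uptake, ran from 214390 through 674180 to 1388158 in saline and from 287178 through 487496 to 1281717 in LNA29 livers (log2 difference -0.21 ± 0.44, limma adjusted p = 0.95). Apoc2, the cofactor of lipoprotein lipase, ran from 7542 through 14282 to 20020 and from 7776 through 9966 to 22326 (-0.14 ± 0.28, limma adjusted p = 0.944). Apoc3, an inhibitor of lipolysis and remnant uptake, ran from 82520 through 209349 to 312772 and from 135438 through 204104 to 245566 (0.024 ± 0.30, limma adjusted p = 0.991). Its mean difference was near 0 and changed sign with the scaling. Without saline liver 49 the log2 differences of Apoc1, Apoc2 and Apoc3 were -0.52, -0.27 and -0.21, and without saline liver 47 they were 0.015, -0.014 and 0.17. The 95% intervals of all 3 genes reached from at least -0.60 to at least 0.44 on the log2 scale.

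Apoa4, which is secreted with triglyceride-rich particles and responds to hepatic fat and fasting, had the widest range. The lowest liver (saline 43, 28529) and the highest (LNA29 46, 428491) differed by a factor of 15. Saline livers ran from 28529 through 66963 to 136903, and LNA29 livers from 30408 through 101594 to 428491. Of the 6 LNA29 livers, 5 lay above the saline median and 2 above every saline liver, but LNA29 liver 48 lay next to the lowest saline liver. The ratio of means was 2.13 and the log2 difference 0.78 ± 0.49 (SE), with a limma adjusted p of 0.758 and an exact permutation p of 0.236. The log2 difference was 1.15 by edgeR (adjusted p = 0.611) and 1.16 by DESeq2. Leaving out single livers moved the limma value. The log2 difference was 0.68 without saline liver 49, 0.39 without LNA29 liver 46 and 1.16 without LNA29 liver 48 (limma adjusted p 0.388 without 48, range over the liver omissions 0.388 to 0.916).

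Apoa5, an activator of plasma triglyceride lipolysis and the member with the seed matches printed above, did not pass the test. Saline livers ran from 73490 through 144229 to 172614, and LNA29 livers from 99113 through 117418 to 148132, inside the saline range. Apoa5 had a log2 difference of -0.059 ± 0.24 (95% interval -0.56 to 0.44), with a limma adjusted p of 0.979 and an exact permutation p of 0.805. It was -0.21 without saline liver 49 and 0.034 without saline liver 47.

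Livers of a group did not vary gene by gene alone. The ranks that follow are of deposited values and depend on the scaling. Saline liver 49 was the lowest saline liver for 7 of 10 genes, with Apoa4, Apoc2 and Mttp as the exceptions. Its median difference over all 10 genes from the median of the other saline livers was -1.23 log2 units. By share of reads on genes it was not the lowest, since the members took 9.20% there and 8.84% in saline liver 43. Saline liver 47 was the highest saline liver for 7 of 10 genes. LNA29 liver 48 was the highest LNA29 liver for 7 of 10 genes and the lowest for Apoa4 and Mttp, and its members took 17.1% of the reads. There Apoc1 lay 1.54 and Apoc2 1.18 log2 units above the median of the other LNA29 livers, while Apoa4 lay 1.91 and Mttp 0.87 units lower. LNA29 liver 46 was the highest for Apoa4, Apob and Mttp, with Apoa4 2.27 log2 units above the other LNA29 livers. The labels give no feeding, extraction or batch record by which these livers could be compared.

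Promoters are shown for Apob and Apoa4, the members with the lowest limma p (0.120 and 0.129). RefSeq promoter entries, from 250 bases before to 50 bases after a start site, were found for 8 of the 10 genes and not for Apoc1 and Apoc3. They were searched for CAAAGTCCA and for CAAAGNNCA on both strands, forms that hold letters bound by the hepatocyte nuclear receptor HNF4A, and for TATAAA on the given strand. CAAAGTCCA is itself a form of CAAAGNNCA. Of 32851 promoters, 0.475% held CAAAGTCCA, 6.36% held CAAAGNNCA and 8.32% held TATAAA. CAAAGNNCA was found in the promoters of Apob and Apoa4 alone among the 8 genes, and CAAAGTCCA in none. The Apob promoter (GRCm38.p6 chr12:7977427-7977726, plus strand) held it on the minus strand at -103 and TATAAA at -60, and the Apoa4 promoter (chr9:46240594-46240893, plus strand) held it at -182, counted from the start site to the first base of the match. These RefSeq start sites lie inside the genes as placed above, which begin at 7977648 (Apob) and 46240696 (Apoa4). Counted from those gene starts the matches would lie nearer, and part of each printed sequence lies within the gene. Capitals mark the matches, which are letters and not evidence of binding.
Apob: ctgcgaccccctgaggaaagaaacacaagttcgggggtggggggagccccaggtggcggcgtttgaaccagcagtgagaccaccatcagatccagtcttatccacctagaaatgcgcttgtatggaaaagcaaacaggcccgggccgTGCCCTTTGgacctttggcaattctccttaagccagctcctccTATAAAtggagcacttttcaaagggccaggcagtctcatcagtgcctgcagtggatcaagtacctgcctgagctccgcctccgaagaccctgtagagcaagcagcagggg
Apoa4: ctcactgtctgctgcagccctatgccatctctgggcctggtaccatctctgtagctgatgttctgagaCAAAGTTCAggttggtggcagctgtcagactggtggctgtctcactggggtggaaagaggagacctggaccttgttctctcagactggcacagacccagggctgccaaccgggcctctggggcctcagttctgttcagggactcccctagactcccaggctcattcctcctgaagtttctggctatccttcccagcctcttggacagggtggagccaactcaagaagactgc

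The other genes of the lipoprotein pathway were described from 5 lists. None of their 76 tested genes passed with adjustment over all tested genes by limma, edgeR or DESeq2. By limma 17 had an unadjusted p under 0.05, 2 higher and 15 lower in LNA29 livers, and by edgeR as by DESeq2 13 had one, 3 higher and 10 lower. By limma, 1.95% of all tested genes were higher and 5.97% lower at that unadjusted threshold. The shares over all tested genes by edgeR and DESeq2 were not taken. The counts are a description with no test. Of all unadjusted calls 24.6% were higher with the deposited scaling, 33.6% after the shift to a common median and 12% with total reads. Total reads moved the median log2 difference of all genes from -0.093 to -0.21. Of 12486 tested genes, 299 were higher and 590 lower at the unadjusted threshold with a common median, and 81 and 596 with total reads. Without saline liver 49, 288 were higher and 706 lower of 12458. The list counts below under these settings stand beside these counts.

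Lipoprotein receptors and their regulators had 1 gene higher and 4 lower of 11, with a median log2 difference of -0.26. With a common median 2 were higher, and with total reads 0 were. Lrp1, the remnant receptor, was at -0.45 ± 0.14 (SE; limma adjusted p = 0.315), with 12270 to 19891 in saline and 10171 to 14472 in LNA29 livers. Lrpap1, a chaperone of receptors of this family (-0.42), and Lsr, a further remnant receptor (0.30), were named after their values were seen.

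Genes of VLDL assembly and Apob editing had 0 higher and 4 lower of 17 tested, with a median of -0.19. They were Tm6sf2, which supports lipid loading of VLDL (-0.48 ± 0.16, limma adjusted p = 0.342), Smlr1, which is needed for VLDL secretion (-0.44 ± 0.19, limma adjusted p = 0.573), P4hb, the subunit with which Mttp forms its heterodimer (-0.44 ± 0.15, limma adjusted p = 0.413), and Sar1b, a GTPase of the vesicles that carry particles out of the endoplasmic reticulum (-0.34, named after its values were seen). P4hb ran from 44300 to 56676 in saline and from 30340 to 46877 in LNA29 livers, while Mttp itself was at 0.14. With a common median, 2 of the 17 were lower.

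Plasma lipases and particle remodelling genes had 1 higher and 1 lower of 11, with a median of -0.27. Lpl, which hydrolyses particle triglyceride, was at 1.04 ± 0.41 (limma adjusted p = 0.491) with 512 to 3925 in LNA29 against 317 to 670 in saline livers. The highest value was that of LNA29 liver 48, and LNA29 livers 44, 46 and 50 lay inside the saline range (exact permutation p = 0.0628). Pltp, the phospholipid transfer protein, was at -0.72 ± 0.32 (limma adjusted p = 0.590). Other apolipoproteins had 0 higher and 1 lower of 11, Saa4 of HDL (-0.50 ± 0.23, limma adjusted p = 0.621), with a median of -0.11. Without saline liver 49, 4 of 11 other apolipoproteins and 3 of 11 lipases and remodelling genes were lower. In that setting 706 of 12458 tested genes were lower. With a common median, 0 of the other apolipoproteins were lower.

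Transcription factors known to act on apolipoprotein genes had 0 higher and 5 lower of 26, with a median of -0.24. Nr1d1, a clock repressor, was at -1.33 ± 0.32 (limma adjusted p = 0.139), Srebf1, which drives lipogenic genes, at -0.99 ± 0.30 (0.270) and Mlxipl, the carbohydrate-responsive factor, at -0.68 ± 0.22 (0.316). Cebpa (-0.40) and Nr1h2 (-0.38), named after their values were seen, made up the 5. The count lower was 3 with a common median and 6 without saline liver 49. Hnf4a, a main activator of apolipoprotein genes, was at -0.054 (limma adjusted p = 0.967). The named genes of the 5 lists, apart from those named after their values were seen, kept their direction under total reads, under a common median and without saline liver 49.

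**Figure D5:**
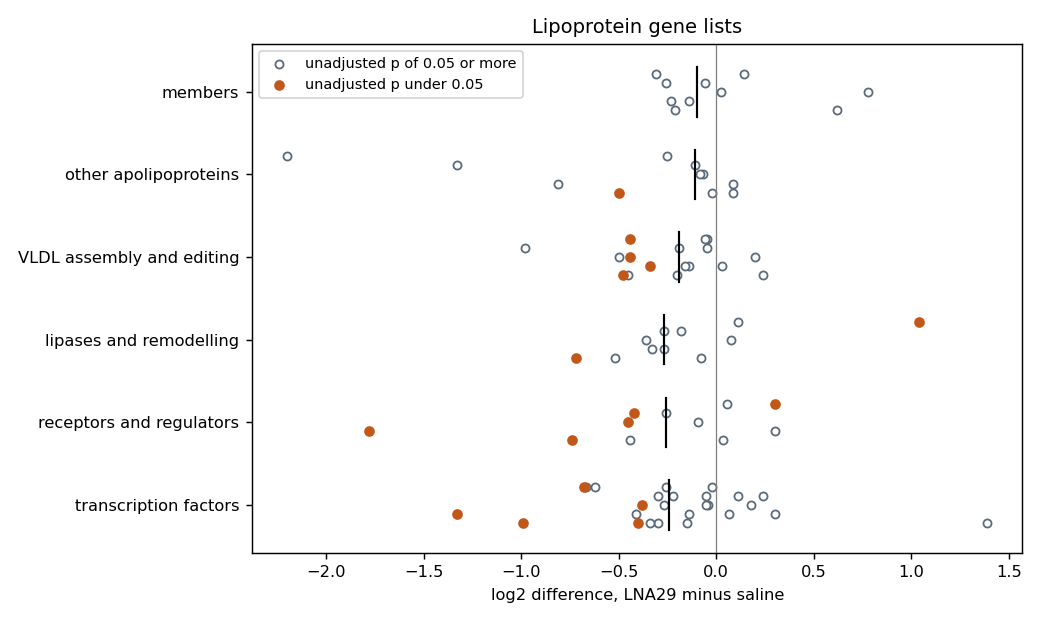
Log2 difference between LNA29 and saline livers (6 against 6, limma) for the 10 members and the genes of 5 lists, 1 point per gene, with filled points at an unadjusted p under 0.05 and bars at list medians. No gene shown passes after adjustment, and the filled points number 2 higher and 15 lower.

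The pattern of Apob over the 12 livers was compared with 8980 other genes with a mean of at least 100, by the root mean square difference of centred log2 values. The closest were Hagh (0.10), Acaa2 (0.11), Shmt2 (0.11), Pcbd1 (0.11) and Cyp2d22 (0.12), where the median gene differed by 0.48. Their log2 differences between groups were -0.25, -0.25, -0.36, -0.15 and -0.30, and none passed adjustment (limma adjusted p 0.372 to 0.857). A scaling that each liver gives to all its genes enters such likeness. The measure also ranks genes that vary little ahead of noisier ones, since Apob itself had a within-group SD of 0.23 log2 units.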

How the data were processed

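RNA-seq was made from 6 saline and 6 LNA29 livers, as polyA libraries read as single reads of 100 bases. The authors aligned reads with MapSplice2 and quantified genes with RSEM on mm9. The deposited values are a signal on a linear scale, RSEM reads that the authors scaled so that the upper quartile of genes with reads is 1000, with genes without reads set to 1. Of the values of genes with reads, 92.2% to 93.9% per liver came out as whole numbers of reads when divided by what a single read contributes (9.80 to 24.4, tolerance 0.02), and these recovered reads gave depth and the count tests. There were 0 pairs of identical libraries. Left out were 2 unnamed columns of values and 4 columns of the authors' means and comparison.

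Genes with a mean of at least 10 (12486) were tested as log2(value + 1) in limma 3.58.1 with a variance trend (R 4.3.3), with Benjamini-Hochberg adjustment. Fold changes on this scale understate those of low genes. Alternatives were other scalings, pseudocounts and filters, array weights, livers left out in turn, and 2 count tools, DESeq2 1.42.0 and edgeR 4.0.16, which took the recovered reads after rounding. Single values had two-sided exact permutation tests over 924 divisions of the livers. The fits across genes were tested on simulated data. The members and lists were chosen with earlier results of these data known. Named genes were the 10 members, the 4 target genes, and from each list any gene past adjustment and the 3 largest differences with an unadjusted p under 0.05 and a mean of at least 50, and the 5 genes most like the member with the smallest limma p. Some genes of the receptor list that this rule names are not reported here. Scripts ran in Python 3.11.15 with NumPy 2.4.6, pandas 2.3.3, SciPy 1.17.1 and matplotlib 3.10.9.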

Additional observations from a re-analysis of the deposited data

Results flagged for a closer look

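Of 52 groups of 6 livers tested over 26 genes for a liver far from the others, 1 stood out, where chance gives 2.6, about 1 in 20. In LNA29 liver 46 the log2 value of Mlxipl was 10.76 (deposited value 1732), against 11.27 to 11.53 in the other LNA29 livers, a gap of 0.665 of the range. None of the 20 groups of the 10 members stood out.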

How the results depend on the processing

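The count of members called was 0 under all 25 alternatives, 13 of them other than leaving out a liver, and 236 of 250 member values kept their direction and their side of the threshold. The alternatives without a variance trend, and those combining a scaling with the omission of saline liver 49, were chosen after seeing the data. Over all genes, limma called 20. The count was 10 with a common median, 1 with total reads, 1 with total reads other than Alb, 58 with array weights, 72 with DESeq2, 6 without a variance trend, 5 with total reads and 12 with a common median when saline liver 49 was also left out, and 1 to 29 with each liver left out. Members with an exact permutation p under 0.05 numbered 1, against 0 with a common median, 2 with total reads, 2 with total reads other than Alb, and 0 to 1 with each liver left out. The log2 difference of Apoc3 (0.024) changed sign to -0.10 with total reads, -0.039 with total reads other than Alb, -0.15 with array weights, and -0.14 and -0.21 with total reads and a common median without saline liver 49. With 1 liver left out it ran from -0.21 (saline 49) to 0.17, at -0.022 without saline 43, -0.018 without LNA29 46, -0.047 without LNA29 48 and -0.041 without LNA29 52. Apoa5 changed sign to 0.0076, 0.034 and 0.02 without saline 45, 47 and 53, and Apoc1, which ran from -0.52 (without saline 49), to 0.015 without saline 47. The median over members ran from -0.24 (without saline 49) to 0.025 (without saline 47), and was -0.30 with array weights. The cause was not tested. No paired analysis was possible because the saline and LNA29 livers share no replicate number. Among the members depth was lowest for Mttp, with 196 to 564 reads per liver.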
